A study of Mus musculus with 4 samples.

Results

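Peritubular capillaries are the vessels that wrap the tubules of the kidney. Their endothelial cells have fenestrae closed by thin diaphragms, and Plvap encodes the protein from which these diaphragms are built. Glomerular capillaries have fenestrae that mostly lack diaphragms in the adult, and arterial endothelium is not fenestrated, so that Plvap is a usual marker of the peritubular bed. This account describes 4108 Plvap-positive peritubular endothelial cells among 40939 cells kept from 4 mouse kidneys. Members were chosen from measured counts of unique molecular identifiers (UMIs, 1 per captured RNA molecule). A cell had to have at least 500 UMIs, at least 300 genes and less than 50% mitochondrial UMIs. It also needed 3 or more detected genes among Pecam1, Kdr, Emcn, Egfl7, Flt1, Cdh5 and Eng, no UMI of the leukocyte gene Ptprc, at least 1 UMI of Plvap, none of the glomerular endothelial gene Ehd3, and at most 1 detected gene among the arterial genes Gja5, Gja4, Sox17, Fbln5 and Bmx.

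The 4 mice were wild type and were all taken after the induction of contrast-induced acute kidney injury, an injury of the kidney by a radiographic contrast medium. Fresh kidney was dissociated to single cells and sequenced on a 10x Genomics platform, with 1 library per mouse. The sample list used here gives all 4 libraries the same batch number, which does not show that they were prepared together. Mouse 4 differed from the other mice in depth, composition and shared barcodes, as given below, and a difference in preparation was not tested. The contrast agent, its dose, the interval after induction, and the sex and age of the mice are not given in the sources used here. No uninjured mouse was analysed, so no value below is an effect of the injury, and the comparisons are between vessel beds within the same 4 kidneys or between the mice. The study set out to describe the cell make-up of the injured kidney and the transcripts of its cell types.

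The libraries held 7085, 8858, 12904 and 12092 kept cells in mice 1 to 4. Median depth was 5549, 5815 and 5655 UMIs per cell in mice 1 to 3 and 2077 in mouse 4. Ribosomal protein genes took a median of 1.60, 1.62 and 2.58% of UMIs in mice 1 to 3 and 14.5% in mouse 4, so that this library stands apart in depth and in composition. Kept cells of mice 1 to 3 shared 22, 25 and 40 barcodes by pair, mouse 4 shared at most 1 with any other, and no member shared its barcode with a member of another mouse.

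The members numbered 305, 637, 1754 and 1412 cells in mice 1 to 4. They made up 4.30%, 7.19%, 13.6% and 11.7% of kept cells, with exact 95% binomial intervals of 3.84 to 4.80, 6.66 to 7.75, 13 to 14.2 and 11.1 to 12.3%. Among all 8063 cells that passed the endothelial genes and lacked Ptprc they made up 36.7%, 37.8%, 49.4% and 70.9%, with exact intervals of 33.4 to 40.0, 35.4 to 40.1, 47.7 to 51.0 and 68.8 to 72.9%. These intervals cover counting error only and none of the losses in dissociation. The mean share over mice was 9.19 ± 4.22% of kept cells (SD, n = 4). The shares differed between mice by more than their counting error, and the 2 lowest shares of kept cells were those of mice 1 and 2.

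The other classes of the same endothelial gate served for comparison. Glomerular capillary endothelium, with Ehd3 and no Plvap, held 260 cells (55, 54, 130 and 21 by mouse). With each cell thinned to the same number of UMIs, 88.9, 82, 42.5 and 55% of this class had 2 or more glomerular markers. The last share comes from 20 cells. Among members the shares were 21.0, 18.2, 22.4 and 11.6%. The glomerular class thus carried these markers less often in mice 3 and 4, and the part of other endothelial cells in it was not tested. Arterial and arteriolar endothelium, with 2 or more of the 5 arterial genes, held 894 cells (125, 169, 431 and 169). Cells with both Plvap and Ehd3 numbered 1733 (309, 790, 330 and 304), and cells with neither numbered 1068 (38, 37, 907 and 86). T lymphocytes, with Ptprc and at least 2 of Cd3d, Cd3e and Cd3g, held 2608 cells of another lineage. Their sums carried neutrophil markers at 19929.9, 6744, 1609 and 920.0 CPM and macrophage markers at 2135, 690.0, 555 and 698 CPM, so that they hold RNA of further leukocytes, and T lymphocytes can transcribe interferon and MHC genes themselves. For those genes they are a second lineage and not a background.

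**Figure D1:**
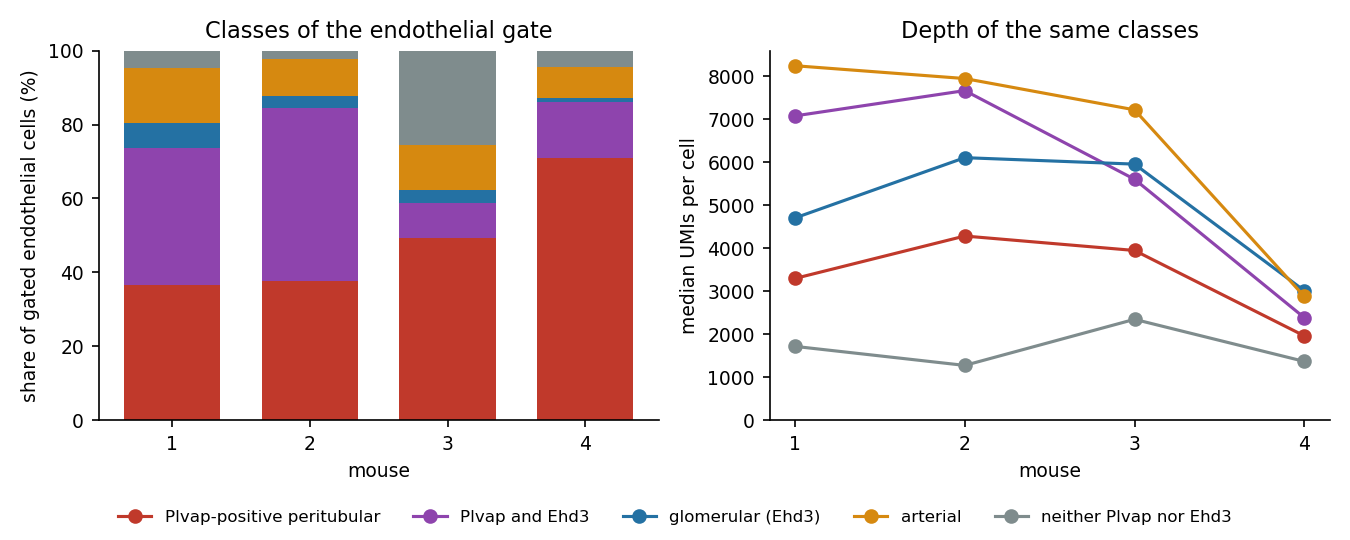
Left, the share of gated endothelial cells in each of 5 classes (stacked bars, percent) for mice 1 to 4; right, the median UMIs per cell of the same classes. The peritubular share is highest in mouse 4 (70.9%), cells with neither gene are most frequent in mouse 3 (25.5%), and the peritubular cells lie below the glomerular, arterial and double-positive cells in depth in every mouse.

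The markers that the label names were present, which the rule in part required. Plvap was measured at 3832, 3894, 846 and 2638 CPM (UMIs of a gene per 1000000 UMIs of the summed cells) in mice 1 to 4, Flt1, the VEGF receptor 1, at 4938, 6042, 2359 and 2251 CPM and Cdh5, the VE-cadherin of endothelial junctions, at 519.8, 618, 1049 and 296 CPM. T lymphocytes of the same libraries had 33, 89.1, 10.1 and 113 CPM of Plvap. Mouse 3 was the lowest in Plvap and the highest in Cdh5. A member had a median of 9, 14, 3 and 5 Plvap UMIs in mice 1 to 4, and 24, 44, 505 and 123 members were included on a single Plvap UMI.

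Just inside the Plvap threshold, members with 1 UMI carried Igfbp3, which marks this bed below, at 1176, 2602, 8791 and 2064 CPM. Just outside it, cells with neither Plvap nor Ehd3 carried 217, 263, 4377 and 1635 CPM. The cells excluded in mouse 3 thus had more Igfbp3 than the excluded cells of the other mice. In mice 1, 2 and 4 the rule left out more cells with both genes than with neither, and in mouse 3 fewer (330 against 907). Cells with both genes had 5053, 4594, 911 and 2847 CPM of Plvap, 5855, 7727, 12027 and 3017 CPM of Igfbp3 and 9.35, 10.2, 21.0 and 3.55 CPM of the glomerular transcription factor Tbx3. Tbx3 was measured at 11.7, 7.07, 14.3 and 5.97 CPM in the members and at 539, 547, 165 and 203 CPM in glomerular cells, so that the double-positive cells lay with the members. Their median depth was 7076, 7664.5, 5602 and 2382 UMIs, against 3294, 4281, 3945 and 1958.5 UMIs in the members. Ehd3 was also detected in 29.0, 34.3, 17.2 and 5.32% of T lymphocytes (median depth 6185, 6427.5, 6195 and 2057.5 UMIs). The rule therefore kept the shallower of the Plvap-positive cells in every mouse, and with no limit on Ehd3 the mean share was 75.8% of gated endothelium in place of 48.7%. Between members and double-positive cells, 1.67% of 12544 genes were called (115 higher and 94 lower in the members, Ehd3 and the other gate genes left out), and none in a fit without the mouse as a block.

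Measured per UMI and not per length, the largest shares of the members' counts outside mitochondrial and ribosomal protein genes went to Rn18s-rs5, Malat1, Igfbp3, Tmsb4x, Fabp4, Ly6c1, Timp3, Rgcc, Flt1, Ly6a, Lcn2, Plvap, Hspb1, Actb and Ifitm3. Igfbp3, a secreted protein that binds insulin-like growth factors, averaged 7551 ± 4151 CPM (SD, n = 4). Fabp4, the fatty acid binding protein of capillary endothelium, averaged 5317 ± 3602 CPM, with 3524, 3942, 3105 and 10695 CPM in mice 1 to 4, so that mouse 4 stood above the others. Rgcc, a regulator of the cell cycle, was measured at 1972, 2906, 2949.8 and 8971 CPM in the members, 76.1, 62.3, 581 and 1075 CPM in glomerular and 339.7, 898, 1027 and 991 CPM in arterial cells. Its groups did not overlap, and it was higher than in both beds (log2 fold change 3.96, SE 0.42, adjusted p = 2.27e-05 against glomerular, log2 fold change 2.25, SE 0.25, adjusted p = 1.65e-04 against arterial).

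Markers of other cell types were present, at levels that differed by type and by mouse. In the members of mice 1 to 3 the proximal tubule markers summed to 365, 238 and 768 CPM. T lymphocytes of these mice had 268, 438 and 595 CPM of them. The thick ascending limb markers summed to 372, 61.6 and 168 CPM and those of the distal convoluted tubule to 201, 10.8 and 6.84 CPM in the same members. The 6 mural markers (Pdgfrb, Acta2, Rgs5, Myh11, Notch3 and Tagln) summed to 22.6, 51.5, 250.3 and 44.9 CPM in the members, to 582, 2966, 2323 and 7558 CPM in glomerular and to 594, 552, 732 and 112 CPM in arterial cells. The 5 fibroblast markers summed to 2.34, 0, 13.4 and 2.83 CPM in the members, with all 5 at 0 in mouse 2, and to 89.3, 254, 92.5 and 1605 CPM in glomerular cells. The 4 collecting duct markers summed to 18.0, 6.40, 16.0 and 905 CPM, and to 6.45, 5.85, 8.21 and 472 CPM in T lymphocytes, so that mouse 4 was high in both. The 5 podocyte markers summed to 328, 326, 344 and 617 CPM, mostly from Synpo and Cdkn1c, with Nphs1 at 0.781, 1.01, 5.47 and 2.20 CPM. In mice 1 and 2 this list summed to 230 and 278 CPM in arterial and 437 and 437 CPM in double-positive cells. Glomerular cells had 103 and 106 CPM of it and T lymphocytes 10.7 and 19.4 CPM. In these mice the list was thus higher in each endothelial class than in T lymphocytes, and its source in the members was not tested. The 4 neutrophil markers summed to 542, 689, 108 and 52.5 CPM, the 5 macrophage markers to 64.8, 78.5, 26.5 and 345 CPM, the 5 T cell markers to 5.46, 4.04, 2.49 and 99.3 CPM and the 4 B cell markers to 0, 1.35, 0.746 and 13.2 CPM. The part of these transcripts in the results below was not tested except by leaving out the 1770 members that had 2 or more markers of 1 such type. These were 183 of 305, 457 of 637, 894 of 1754 and 236 of 1412 members in mice 1 to 4. That selection thus left out most members of mice 1 to 3 and few of mouse 4. It also left out members for Synpo and Cdkn1c alone, when both were detected.

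The first comparison asked how the peritubular cells differed from the glomerular capillaries of the same kidneys. Counts were summed per mouse and class and fitted with mouse as a block, and the 15 genes that set the classes were left out of the calls. The test (edgeR's quasi-likelihood test with Benjamini-Hochberg adjustment) covered 10659 genes and called 425 (3.99%) higher and 452 (4.24%) lower in the peritubular cells at an adjusted p below 0.05, and the median log2 fold change was 0.08. The calls fell to 196 higher and 241 lower without mouse 2, and to 260 and 345 without mouse 4, whose glomerular class held 21 cells. With cells that had markers of other types left out, 168 genes were higher and 158 lower. The calls rest on the pairing of classes within a mouse, since a fit without it called 9 higher and 34 lower.

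Igfbp3, among the most abundant transcripts of the members, differed in every mouse. It was measured at 6144, 8047, 12959 and 3053 CPM in the members of mice 1 to 4 and at 198, 184, 1546 and 389.6 CPM in their glomerular cells (log2 fold change 4.27, SE 0.39, adjusted p = 5.03e-06). Every member sum lay above every glomerular sum. Apln, the apelin ligand of endothelial tip cells, was measured at 151, 108, 67.0 and 17.3 CPM against 0, 2.59, 5.93 and 0 CPM (log2 fold change 4.62, SE 0.46, adjusted p = 1.28e-05). Esm1, the proteoglycan endocan that VEGF induces, was measured at 1363, 1797, 833 and 535 CPM against 16.5, 158, 122 and 109 CPM (log2 fold change 3.68, SE 0.40, adjusted p = 2.84e-05). Both sets were apart in every mouse. Kcnj8, a subunit of ATP-sensitive potassium channels, was measured at 68.7, 119, 231 and 63.8 CPM against 0, 0, 32.0 and 0 CPM (log2 fold change 3.66, SE 0.44, adjusted p = 7.05e-05). A count of 0 allows up to 9.92, 7.78 and 46.7 CPM in the glomerular sums of mice 1, 2 and 4 (3 counts), so that a low level there was not detectable at this depth.

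**Figure D2:**
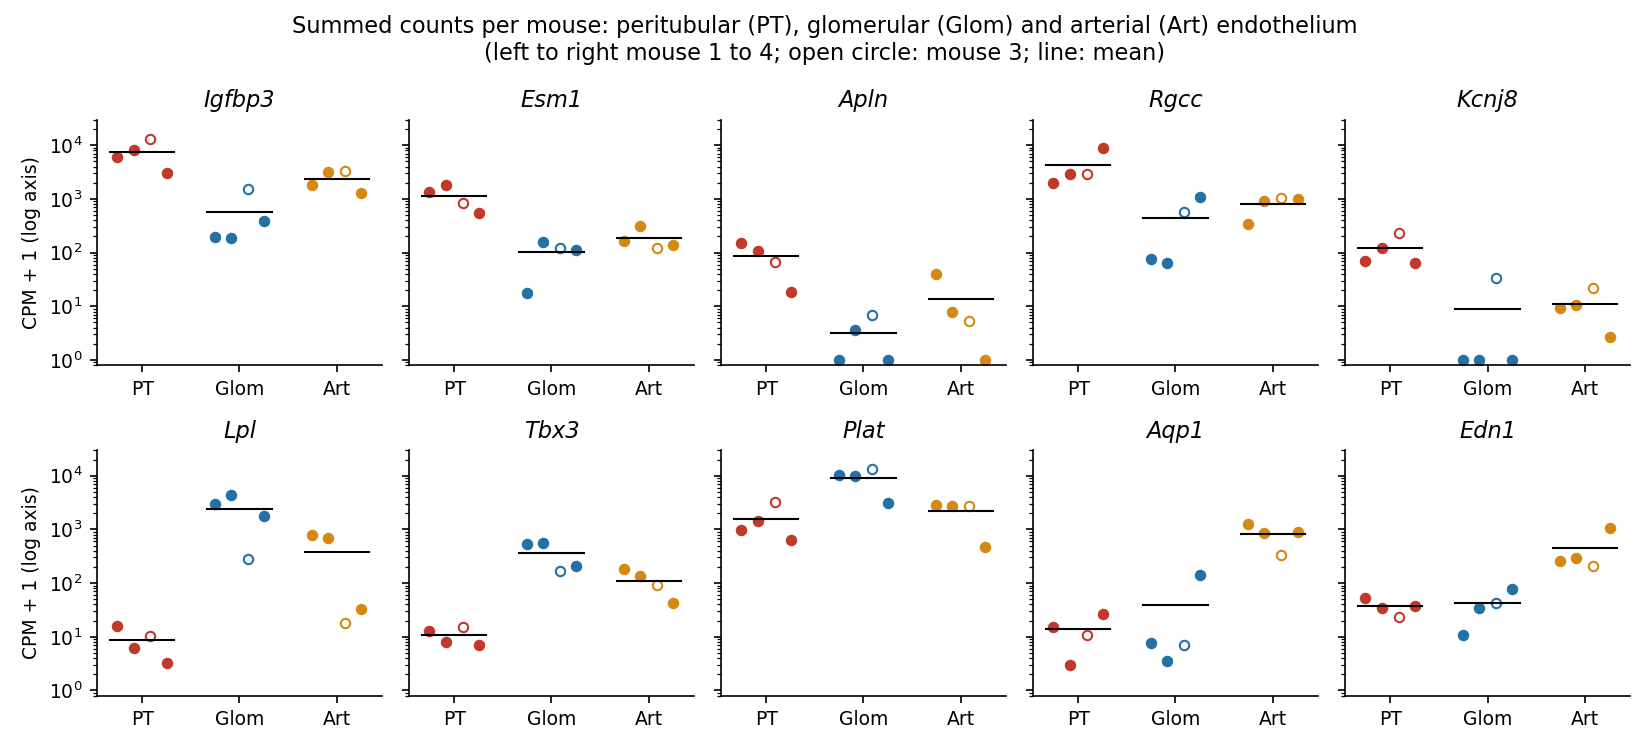
CPM plus 1 (log axis) of 10 genes in the summed peritubular (PT), glomerular (Glom) and arterial (Art) cells, 1 point per mouse and the mean as a line. Igfbp3, Esm1, Apln, Rgcc and Kcnj8 are highest in peritubular cells, Lpl, Tbx3 and Plat in glomerular cells, and Aqp1 and Edn1 in arterial cells.

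Apln and Esm1 belong to a list of 18 genes of VEGF, angiopoietin, apelin and adrenomedullin signalling, the ligands and receptors that steer capillary growth and permeability. Of the 17 tested, 5 were higher and 2 lower than in glomerular cells, and their median log2 fold change was 0.86 against 0.08 for all genes. The receptors Flt4 (log2 fold change 0.95, SE 0.23, adjusted p = 0.0136), Tek (log2 fold change 0.86, SE 0.25, adjusted p = 0.0424) and the receptor phosphatase Ptprb (log2 fold change 0.99, SE 0.23, adjusted p = 0.0108) were the other 3 that were higher. None of these 3 was called without mouse 2 (adjusted p = 0.208, 0.173 and 0.118), nor Tek without mouse 3 or 4 (adjusted p = 0.109 and 0.0712). Nrp1, the VEGF co-receptor, was lower at 383, 425, 69.9 and 129 CPM against 1793, 1178, 146 and 280.5 CPM (log2 fold change -1.38, SE 0.27, adjusted p = 0.00321), and so was the ligand Vegfa at 7.81, 4.38, 14.4 and 7.23 CPM against 52.9, 28.5, 22.5 and 15.6 CPM (log2 fold change -1.69, SE 0.46, adjusted p = 0.0319). Vegfa was not called without mouse 1, 2 or 4 (adjusted p = 0.187, 0.198 and 0.0923). Nrp1 in glomerular cells exceeded the members in each mouse, though the 2 ranges overlapped across mice. Without mouse 1, 2, 3 and 4 the list had 6, 2, 8 and 4 genes higher and 1, 1, 2 and 1 lower, and 2 higher and 1 lower when cells with other markers were left out.

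The glomerular genes that the rule did not use were at low levels in the peritubular cells. Lpl, lipoprotein lipase, was measured at 14.8, 5.05, 9.20 and 2.20 CPM against 3023, 4458, 276 and 1808 CPM (log2 fold change -7.67, SE 0.65, adjusted p = 2.56e-06). Tbx3, a T-box transcription factor, was measured at 11.7, 7.07, 14.3 and 5.97 CPM against 539, 547, 165 and 203 CPM (log2 fold change -4.86, SE 0.39, adjusted p = 1.62e-06). Plat, the tissue plasminogen activator, was measured at 986, 1429.8, 3251 and 639 CPM against 10437, 9715, 13558 and 3101 CPM (log2 fold change -2.47, SE 0.30, adjusted p = 6.74e-05). Member and glomerular ranges did not overlap for Lpl and Tbx3, and overlapped for Plat through mice 3 and 4. Gata5, a transcription factor of glomerular endothelium, had no count in any of the 4 member sums and 112, 70.1, 4.75 and 77.9 CPM in glomerular cells, at least 226-fold lower when 3 counts over all members are taken as the floor, and at least 132-fold and 148-fold lower without mouse 1 or 2. In mouse 3 its glomerular level of 4.75 CPM stood against a member floor of 0.373 CPM. Dlk1 and Kcnj5 had no count in the members either. On the floor over all members Dlk1 was at least 330-fold lower (96.5-fold without mouse 2) and Kcnj5 at least 74.4-fold lower. Glomerular cells held 102 counts of Dlk1, and 28 without mouse 2. Mural and fibroblast markers were also higher in the glomerular class, and the part of stromal RNA in Dlk1 was not tested. Of 8 glomerular markers 7 were tested, 5 were lower and none was higher.

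Ankdd1b (-6.75), Gm14226 (-6.61), Galnt17 (-6.05), Meg3 (-5.87) and Gucy1a2 (-5.85), given as log2 fold changes, and Cnmd, with 2 counts in all members and 33 in glomerular cells, completed the 10 largest decreases. Each was at or below 2.99 CPM in every member sum. Meg3 is also a transcript of stromal cells, and the mural markers were lower in the same comparison (6 of 6, median log2 fold change -4.82). Leaving out cells with mural markers removes those genes by its construction, so the part of stromal RNA in Meg3 was not tested.

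Among the largest increases, Crnde and Pgr had no count in the glomerular sums. Over all mice they were at least 9.04-fold and 2.95-fold higher in the members against a floor of 3 counts over the glomerular class, and Pgr at least 1.67-fold and 1.29-fold without mouse 1 or 2. Crnde is a long noncoding RNA, measured at 22.6, 22.6, 7.46 and 33.6 CPM in the members and 1.07, 1.35, 0.53 and 1.97 CPM in T lymphocytes. The epithelial genes Krt18 (adjusted p = 4.41e-04), Krt8 (adjusted p = 0.00129) and Cldn7 (adjusted p = 1.75e-04) were also called, against 1, 1 and 3 counts in all glomerular cells. For Krt18 the ratio of pooled CPM was 72.0 (exact 95% interval 12.9 to 2849.7, counting error only), and it rests on mouse 4, which holds the 1 glomerular count. Without mouse 4 the members had 105 counts and glomerular cells none, at least 4.36-fold higher against a floor of 3 counts. Krt18 was measured at 3.12, 2.02, 11.8 and 187 CPM in the members and 0.717, 17.1, 2.38 and 146 CPM in T lymphocytes, so that both classes were high in mouse 4. Igkc, an immunoglobulin light chain, was measured at 7.81, 5.72, 9.70 and 5995 CPM in the members (log2 fold change 4.51, SE 1.13, adjusted p = 0.0196), and the call was lost when the cells with the highest doublet scores were left out (adjusted p = 0.283). The part of free tubular and plasma cell RNA in these calls was not tested. Mettl24, a methyltransferase-like gene, was measured at 30.4, 28.3, 1.87 and 18.5 CPM against 3.31, 0, 0 and 0 CPM, with 1 count in all glomerular cells (adjusted p = 0.00334). The ratio of pooled CPM was 20.3 (exact 95% interval 3.6 to 806, counting error only), 10.9 without mouse 2, and the gene was not called without mouse 2 (adjusted p = 0.0692).

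In the glomerular comparison 5 of 6 MHC class II genes tested and 7 of 12 genes of the type I interferon response were higher in peritubular cells, and none was lower. MHC class II molecules present peptides to CD4 T cells, and capillary endothelium of several organs carries them at a low level. The median log2 fold change of the 6 genes was 1.69. H2-Aa was measured at 38.2, 46.1, 230.2 and 189 CPM against 13.2, 13, 59.3 and 93.5 CPM (log2 fold change 1.83, SE 0.26, adjusted p = 2.86e-04), and the invariant chain gene Cd74 at 138, 136, 640.2 and 595 CPM against 49.6, 44.1, 152 and 514 CPM (log2 fold change 1.54, SE 0.26, adjusted p = 0.00107). H2-Ab1 (log2 fold change 1.64, SE 0.28, adjusted p = 0.00137) and H2-Eb1 (log2 fold change 1.75, SE 0.28, adjusted p = 7.01e-04) moved alike in 4 of 4 mice. Mice 3 and 4 were the high mice for H2-Aa and Cd74 in both classes. H2-DMb1 (log2 fold change 2.65, SE 0.67, adjusted p = 0.0204) lost its call without mouse 4 (adjusted p = 0.102). The number of class II calls was 3 after thinning to 1000 UMIs, and 5, 5, 4 and 4 with mouse 1, 2, 3 and 4 left out in turn. None of the 3 macrophage markers tested was called here, their median log2 fold change was 0.39, and 2 of the 5 could not be tested. The part of macrophage RNA in the class II calls was not tested.

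Genes of the type I interferon response, the antiviral program set off by interferon alpha and beta, had a median log2 fold change of 1.01. Rsad2, which encodes viperin, was measured at 333, 309, 2949 and 155 CPM against 62.9, 25.9, 1306 and 46.7 CPM (log2 fold change 2.19, SE 0.34, adjusted p = 6.28e-04). Mouse 3 was high in both beds, and the difference was present in each mouse. The count was 5, 1, 8 and 2 without mouse 1, 2, 3 and 4, 1 when cells with other markers were left out and 1 after thinning. Of the 10 genes of the interferon gamma response only Gbp2, a guanylate-binding protein, was called (log2 fold change 1.69, SE 0.42, adjusted p = 0.0198), and not without mouse 2 or 4 (adjusted p = 0.14 and 0.116). Among MHC class I genes 4 of 10 were higher, H2-K1, H2-D1, Psmb8 and Psmb9, with log2 fold changes of 0.93, 0.86, 1.05 and 1.18. That count was 3, 0, 2 and 2 without mouse 1, 2, 3 and 4.

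Chemokines, cytokines and adhesion molecules gave a mixed picture. Il33, an alarmin kept in the nucleus of endothelial cells, was measured at 192, 229.7, 21.8 and 122 CPM against 9.92, 44.1, 1.19 and 15.6 CPM (log2 fold change 3.14, SE 0.34, adjusted p = 2.31e-05), and was higher in 4 of 4 mice although mouse 3 was low in both beds. Ackr3, a scavenging receptor for Cxcl12, was higher (log2 fold change 1.02, SE 0.23, adjusted p = 0.0101), and not called without mouse 2 or 3 (adjusted p = 0.1 and 0.0664). Ccl2, the monocyte chemokine, was measured at 6.24, 13.1, 298 and 16.3 CPM against 0, 5.19, 48.6 and 15.6 CPM (log2 fold change 2.45, SE 0.38, adjusted p = 5.69e-04), and lost its call without mouse 3 (adjusted p = 0.469). Csf3 and Cxcl9 were called as well, yet 0 to 0.67 CPM was measured outside mouse 3 in the members, so that these calls rest on that mouse. Vcam1, the ligand of leukocyte integrins, was measured at 59.3, 69.4, 912 and 79.5 CPM against 3.31, 20.8, 346 and 62.3 CPM (log2 fold change 1.69, SE 0.32, adjusted p = 0.00259). Its neighbour in function Sele, E-selectin, was lower at 21.1, 5.05, 75.6 and 11.3 CPM against 321, 153, 154 and 93.5 CPM (log2 fold change -2.88, SE 0.48, adjusted p = 0.00104), with no overlap of the groups. Cx3cl1, a membrane-bound chemokine, was lower too (log2 fold change -1.46, SE 0.21, adjusted p = 3.90e-04). In all, 5 of 15 chemokine and cytokine genes were higher and 1 lower, which became 1 higher and 4 lower without mouse 3. Of 11 adhesion genes 2 were higher and 1 lower, with 2, 1, 2 and 1 higher without mouse 1, 2, 3 and 4.

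Of 13 vasoactive genes 3 were higher and 1 was lower than in glomerular cells, and of 12 coagulation genes tested 1 was higher and 3 were lower. Nos3, the endothelial nitric oxide synthase, was measured at 165, 151, 227 and 92.1 CPM against 39.7, 44.1, 203 and 46.7 CPM (log2 fold change 1.18, SE 0.30, adjusted p = 0.0237), and was not called without mouse 1, 2 or 4 (adjusted p = 0.0713, 0.179 and 0.121). Gucy1a1, a subunit of the nitric oxide receptor guanylate cyclase, was measured at 0.781, 2.02, 6.59 and 0.629 CPM against 72.8, 158, 65.3 and 15.6 CPM (log2 fold change -4.56, SE 0.47, adjusted p = 1.92e-05). It is known from mural cells, whose markers moved in the same direction. Entpd1, the ectonucleotidase CD39 that breaks down extracellular ATP, was higher at 915, 1309.6, 959.8 and 582 CPM against 427, 454, 729 and 249 CPM (log2 fold change 1.17, SE 0.25, adjusted p = 0.00772), and not called without mouse 2 (adjusted p = 0.109). Without mouse 1, 2, 3 and 4 the vasoactive genes gave 1, 0, 5 and 1 higher, and the coagulation genes 1, 0, 4 and 1.

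TGF-beta and BMP signalling is known to restrain growth and keep vessels quiescent. In the list of 13 such genes 6 were lower and none was higher, with a median log2 fold change of -0.73. Smad6, the inhibitory SMAD that BMP induces, was measured at 82.0, 74.4, 53.1 and 84.9 CPM against 265, 187, 144 and 218 CPM, with no overlap (log2 fold change -1.34, SE 0.21, adjusted p = 7.17e-04). The DNA-binding inhibitors Id1 (-0.90), Id2 (-0.73) and Id3 (-1.12) and the ligands Bmp6 (-1.11) and Tgfb2 (-2.29) were the other 5, given as log2 fold changes, and Tgfb2 was higher in 2 mice and lower in 2. The count was 3, 1, 2 and 5 without mouse 1, 2, 3 and 4, none in cells thinned to 1000 UMIs and 4 when cells with other markers were left out. Efnb2, an arterial ligand of Eph receptors, was lower in 4 of 4 mice (log2 fold change -1.74, SE 0.23, adjusted p = 1.75e-04). In the Notch list 2 of 12 genes were lower, the target genes Hey1 (log2 fold change -3.00, SE 0.85, adjusted p = 0.0398) and Hey2 (log2 fold change -4.28, SE 0.84, adjusted p = 0.00392), and Hey1 was not called without mouse 3 or 4 (adjusted p = 0.0664 and 0.061). Tgfb2 was not called without mouse 4 (adjusted p = 0.0629).

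In several programs most genes were not called against glomerular cells, where 3.99% of all genes were higher and 4.24% lower. Of 11 glycolysis genes none was called in either direction. Of 14 immediate early genes 3 were lower (Nr4a1, Fos and Zfp36), a larger share than over all genes. That count was 1, 1, 4 and 4 without mouse 1, 2, 3 and 4. Among thinned cells, 43.1, 35.6, 48.5 and 54.0% of members had 4 or more immediate early genes. Glomerular cells gave 68.9, 52, 76.4 and 60%, the last from 20 cells, above the members in 4 of 4 mice. Of 10 heat shock genes only Hspa5, a chaperone of the endoplasmic reticulum, was lower (log2 fold change -1.53, SE 0.29, adjusted p = 0.00253). Hspa5 was measured at 279, 309, 1293 and 235 CPM against 863, 1282, 5075 and 405 CPM. Of 11 hypoxia genes Ndrg1 was higher (log2 fold change 1.35, SE 0.28, adjusted p = 0.00605) and Vegfa lower, and the call of Ndrg1 was lost without mouse 2 (adjusted p = 0.0768). Tcf15, a transcription factor of capillaries that take up fatty acids, was measured at 77.3, 67.0, 12.1 and 127 CPM against 3.31, 2.59, 8.31 and 0 CPM (log2 fold change 2.94, SE 0.55, adjusted p = 0.00266), and was not called without mouse 4 (adjusted p = 0.0613). Of 9 genes of caveolae and fenestrae, Cavin2 was the only one called (log2 fold change 1.12, SE 0.25, adjusted p = 0.00881), and not without mouse 2 (adjusted p = 0.185). Cdkn1a, the cell cycle inhibitor p21, was measured at 538, 779.9, 2126 and 819 CPM and did not pass the test against glomerular (adjusted p = 0.83) or arterial cells (adjusted p = 0.0972).

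Some calls were lost in other selections of cells. With cells that had markers of other types left out, Ackr3, Cavin2, Flt4, Gbp2, H2-D1, H2-K1, Id2, Ndrg1, Nos3, Psmb8, Psmb9, Ptprb and Tek were not called (adjusted p = 0.112 to 0.865). After thinning to 1000 UMIs the same was so of Ackr3, Bmp6, Bst2, Cavin2, Ccl2, Flt4, Gbp2, H2-D1, H2-Eb1, H2-K1, Id1, Id2, Id3, Ifi44, Irf7, Isg15, Nos3, Psmb8, Psmb9, Ptprb, Smad6, Tek and Vegfa (adjusted p = 0.06 to 0.73), which left 120 higher and 103 lower calls among all genes. The log2 fold changes did not all shrink: after thinning those of Vegfa (-2.39), Cavin2 (1.32), Ptprb (1.05) and H2-K1 (1.04) were larger in size than before, and those of Flt4 (0.52) and Ccl2 (1.80) smaller. Cd74 was not called without the cells of highest doublet score (adjusted p = 0.214). Igfbp3, Apln, Esm1, Rgcc, Kcnj8, Il33, Rsad2, Lpl, Tbx3, Plat, Sele and Nrp1 kept their calls in both of these selections and without any single mouse.

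**Figure D3:**
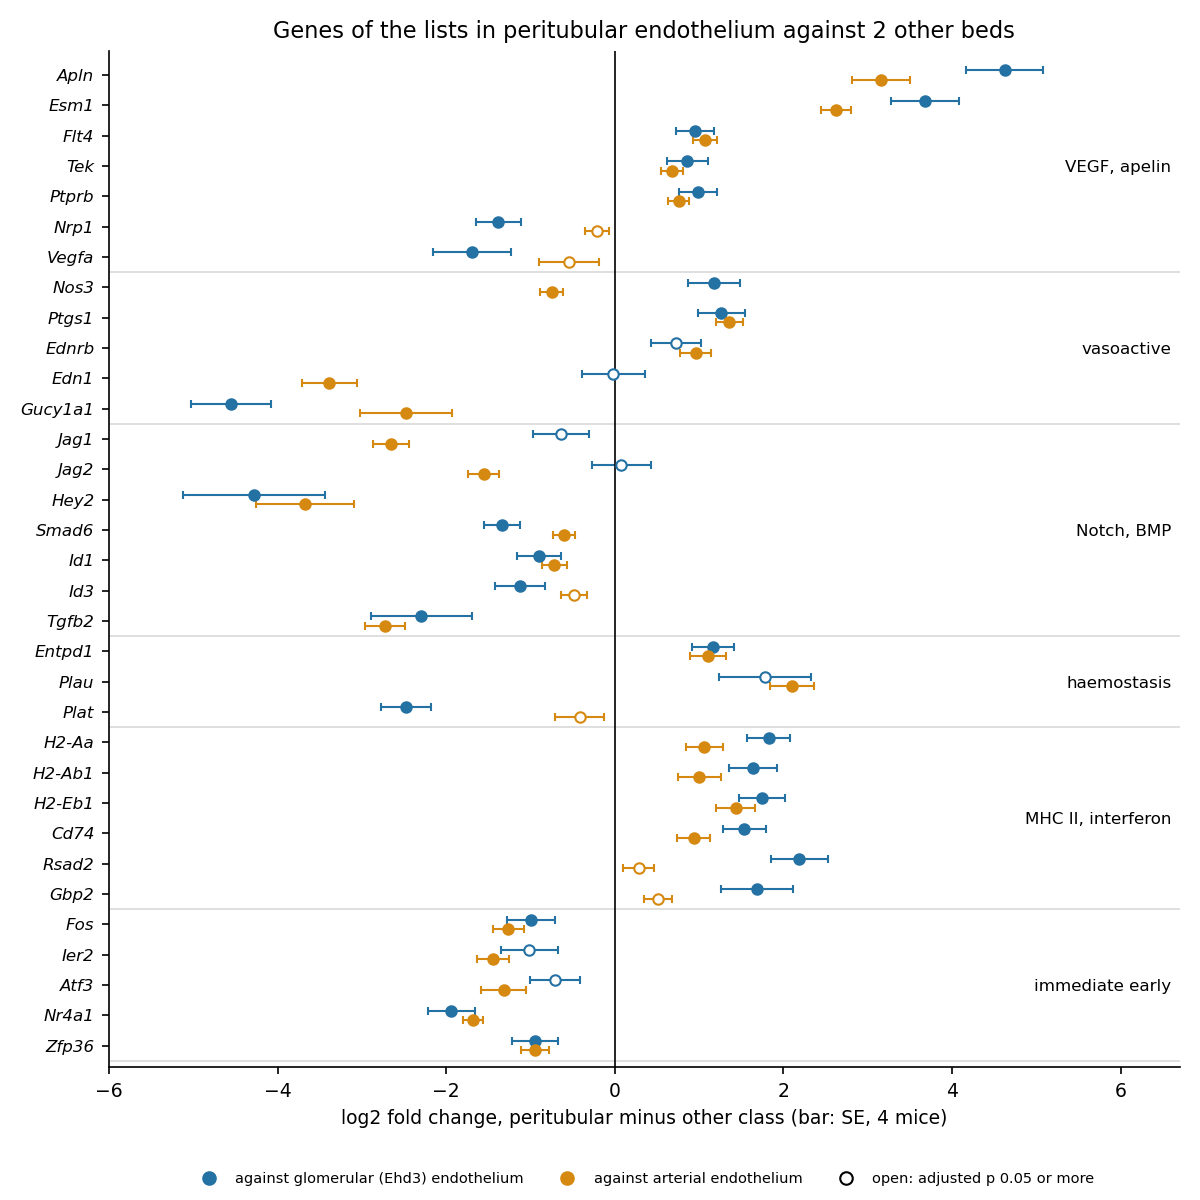
Log2 fold changes (points) with standard errors (bars) of 33 genes, by list, for peritubular cells against glomerular (blue) and arterial endothelium (orange), from sums of 4 mice. Apln, Esm1, Ptgs1, Entpd1 and the MHC class II genes lie to the right of 0 in both, Nos3 lies on opposite sides, and the immediate early genes lie to the left.

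The second comparison set the peritubular cells against the arterial and arteriolar class, and both comparisons use the same member sums. The arterial class is deeper (median 8243, 7945, 7217 and 2876 UMIs). Its gate set no limit on Ehd3. Of 7 glomerular markers tested against it, 5 were lower in the members and none was higher, with a median log2 fold change of -3.27. After thinning to 1000 UMIs, 41.9, 38.3, 22.3 and 9.26% of arterial cells and 21.0, 18.2, 22.4 and 11.6% of members had 2 or more glomerular markers. The part of glomerular cells in genes lower than in the arterial class, Gata5 among them, was not tested. Among 12263 genes the same test called 913 (7.45%) higher and 863 (7.04%) lower in peritubular cells, with a median log2 fold change of 0.03. Without mouse 1 the calls were 577 and 511, without mouse 2 567 and 529, in cells thinned to 1000 UMIs 461 and 432, and without the pairing by mouse 13 and 61. Plvap, which did not define the arterial class, was found in 64.8, 69.8, 45.7 and 51.5% of arterial cells and in 11, 17.1, 3.92 and 6.61% of T lymphocytes. After thinning to 1000 UMIs the shares were 32.3, 43.1, 12.8 and 30.9% and 1.22, 2.46, 0.437 and 3.62%.

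The arterial class carried genes of the descending vasa recta, the vessels that run into the medulla. Aqp1, the water channel, was measured at 14.0, 2.02, 9.83 and 25.1 CPM in peritubular cells against 1241, 844, 328 and 893 CPM (log2 fold change -5.89, SE 0.42, adjusted p = 1.37e-05). Slc14a1, the urea transporter, was measured at 1.56, 0, 0.995 and 0.943 CPM against 144, 25.6, 15.3 and 13.6 CPM (log2 fold change -4.95, SE 0.45, adjusted p = 5.42e-05). Neither overlapped between the classes. Slc14a1 reached 18.6, 23.4, 20.4 and 30.7 CPM in T lymphocytes, so that its arterial level stood above that of T lymphocytes in mice 1 and 2 only. All 4 genes of the descending vasa recta list were lower in peritubular cells. After thinning, 1.42, 0.531, 1.18 and 0.861% of members and 16.1, 7.78, 14.2 and 23.5% of arterial cells had 2 or more of them.

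Arterial genes that the rule did not use were lower in 7 of 9 tested and higher in none. Cxcl12, the chemokine of arterial endothelium, was measured at 0, 1.01, 1.87 and 2.20 CPM against 43.2, 24.9, 29.2 and 97.1 CPM (log2 fold change -4.71, SE 0.36, adjusted p = 1.99e-05). Mgp, a matrix inhibitor of calcification, was measured at 98.3, 26.6, 35.0 and 76.1 CPM against 707, 1119, 482 and 4967 CPM (log2 fold change -4.49, SE 0.47, adjusted p = 1.21e-04), and the elastin gene Eln at 55.4, 35.4, 6.97 and 24.2 CPM against 214, 257, 29.8 and 296 CPM (log2 fold change -2.63, SE 0.24, adjusted p = 5.50e-05). The Notch ligands Jag1 (log2 fold change -2.65, SE 0.21, adjusted p = 2.44e-05) and Jag2 (log2 fold change -1.55, SE 0.18, adjusted p = 2.93e-04) and the target Hey2 (log2 fold change -3.67, SE 0.58, adjusted p = 0.00163) were lower, 3 of 11 Notch genes in all. Dll4, a ligand of the same receptors, was measured at 149.9, 112, 58.7 and 53.4 CPM against 114, 63.7, 35.5 and 109 CPM and did not pass the test (adjusted p = 0.47).

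Among the largest decreases were Gata5, with no count in the members and at least 71.3-fold lower on the floor over the group (39.0-fold and 42.2-fold without mouse 1 or 2), Timp4 (log2 fold change -6.52, SE 0.50, adjusted p = 1.90e-05), a matrix metalloproteinase inhibitor, and Hpgd (log2 fold change -5.02, SE 0.19, adjusted p = 4.41e-07), which degrades prostaglandins. Aqp1, Slc14a1, Lgr5 (-5.45), Fam181b (-5.40) and Cdh13 (-4.91), the last 3 given as log2 fold changes, were also among the 10. Gad1, glutamate decarboxylase, and the noncoding Mannr had 3 and 2 counts in all members against 162 and 139 in arterial cells. The ratio of pooled CPM, arterial over members, was 122 (exact 95% interval 40.9 to 595, counting error only) for Gad1 and 156 (exact 95% interval 42.5 to 1304, counting error only) for Mannr, for which it ranged from 103 to 306 without single mice. Hpgd was measured at 3.90, 0.673, 3.36 and 4.71 CPM against 112, 40.2, 102 and 175 CPM, a difference present in 4 of 4 mice. The mural markers were lower in this comparison also (6 of 6, median -2.33), and no mural marker was called when cells with such markers were left out, which follows from how those cells were chosen. In that selection 7 arterial genes and 4 of the descending vasa recta were called lower.

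Of 13 vasoactive genes 3 were higher and 4 lower than in arterial cells, with 2, 4, 4 and 3 higher and 2, 2, 4 and 3 lower when mouse 1, 2, 3 or 4 was left out. Edn1, the vasoconstrictor endothelin, was measured at 51.5, 33.3, 22.4 and 37.1 CPM against 258, 297, 208 and 1061 CPM (log2 fold change -3.38, SE 0.32, adjusted p = 6.69e-05), and its receptor Ednrb at 1524, 1623, 918 and 707 CPM against 708, 979, 739 and 221 CPM (log2 fold change 0.96, SE 0.19, adjusted p = 0.00571). Ligand and receptor thus differed in opposite directions, the ligand lower and the receptor higher in peritubular cells. Nos3 was lower than in arterial cells (log2 fold change -0.75, SE 0.13, adjusted p = 0.00359) while it had been higher than in glomerular cells. Ptgs1, cyclooxygenase 1, was higher at 92.9, 82.8, 19.7 and 52.8 CPM against 33, 27.7, 10.6 and 20.4 CPM (log2 fold change 1.36, SE 0.16, adjusted p = 2.77e-04). Cldn5, a claudin of tight junctions, was measured at 15.6, 23.2, 41.4 and 59.4 CPM against 431, 231, 168 and 1467 CPM (log2 fold change -3.55, SE 0.41, adjusted p = 2.30e-04), and Jam2, another junctional molecule, was lower too (log2 fold change -1.10, SE 0.12, adjusted p = 1.57e-04). Plau, the urokinase plasminogen activator, was measured at 54.6, 50.8, 8.96 and 28.0 CPM against 8.47, 12.5, 3.82 and 3.41 CPM and was higher (log2 fold change 2.10, SE 0.26, adjusted p = 4.14e-04).

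The VEGF and apelin list gave 10 of 18 genes higher and 1 lower than in arterial cells, with a median log2 fold change of 0.72. Apln (log2 fold change 3.16, SE 0.35, adjusted p = 1.71e-04) and Esm1 (log2 fold change 2.62, SE 0.18, adjusted p = 1.06e-05) led again. The venous and lymphatic co-receptor Nrp2 (log2 fold change 1.40, SE 0.23, adjusted p = 0.00215), the angiopoietin Angpt2 (log2 fold change 1.5, SE 0.17, adjusted p = 2.39e-04), Flt4 (log2 fold change 1.07, SE 0.15, adjusted p = 7.02e-04) and Ramp3 (log2 fold change 1.26, SE 0.25, adjusted p = 0.00699), a partner of the adrenomedullin receptor, were also higher. Aplnr, the apelin receptor, was measured at 6.24, 6.40, 2.36 and 4.09 CPM against 0, 0, 0.273 and 0 CPM, 59 counts against 1 (adjusted p = 0.00513). Vegfc, the lymphatic growth factor, was lower (log2 fold change -1.85, SE 0.24, adjusted p = 4.71e-04), though not after thinning (adjusted p = 0.0797). The count of higher genes was 9, 8, 9 and 10 without mouse 1, 2, 3 and 4 and 8 after thinning, so that the count stayed within 8 to 10 under those changes.

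Of 6 venous markers tested 4 were higher than in arterial cells and 1 was lower, with 5, 3, 3 and 4 higher without mouse 1, 2, 3 and 4. Nr2f2, the transcription factor COUP-TFII of veins, was measured at 273, 399.7, 535 and 167 CPM against 204, 229, 219 and 44.3 CPM (log2 fold change 1.06, SE 0.20, adjusted p = 0.00475), and Vwf, von Willebrand factor, was lower (log2 fold change -1.99, SE 0.41, adjusted p = 0.00775). After thinning, 16.0, 16.1, 11.4 and 3.99% of members and 5.65, 2.99, 2.78 and 1.23% of arterial cells had 2 or more venous genes. The members were higher in 4 of 4 mice, which is the most extreme outcome of a two-sided exact permutation of signs, yet gives an adjusted p = 0.232 over the 39 comparisons of such shares. Of 6 lymphatic markers 4 were higher (1 without mouse 3, 1 without mouse 4 and none after thinning), with Ccl21a at 0, 1.01, 32.8 and 200.2 CPM and Mmrn1 at 0, 1.68, 14.3 and 13.5 CPM in the members and neither counted in arterial cells, at least 134-fold and 24.1-fold higher on a floor of 3 counts over the arterial class. These bounds fell to 45.5-fold for Ccl21a without mouse 4 and 6.91-fold for Mmrn1 without mouse 3. After thinning, 0, 0.177, 0.353 and 0.626% of members had 2 or more lymphatic genes, so that few cells carried them together.

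Of the 10 largest increases, Kcnj8 was measured at 68.7, 119, 231 and 63.8 CPM against 8.47, 9.70, 20.5 and 1.70 CPM (log2 fold change 3.58, SE 0.19, adjusted p = 3.11e-06) and Car8, a carbonic anhydrase-related protein, at 192, 144, 46.9 and 64.7 CPM against 18.6, 21.5, 3.82 and 3.41 CPM (log2 fold change 3.29, SE 0.19, adjusted p = 4.19e-06). Both sets lay apart in every mouse. The adhesion molecule Nlgn1 (4.09), the transcription factor Npas3 (3.95), the dynein Dnah10 (3.17) and the unnamed transcripts Gm46565 (3.37) and Gm11707 (3.31), given as log2 fold changes, were higher in 4 of 4 mice. Ccl2 was measured at 6.24, 13.1, 298 and 16.3 CPM against 0, 0, 10.4 and 0 CPM (log2 fold change 5.03, SE 0.28, adjusted p = 3.35e-06). Igha, an immunoglobulin heavy chain, reached 2.34, 3.37, 2.74 and 1007 CPM (log2 fold change 4.89, SE 0.89, adjusted p = 0.00392), with mouse 4 high, and lost its call without the cells of highest doublet score (adjusted p = 0.201).

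Growth factor binding proteins and basement membrane genes shape the surroundings of capillaries. Igfbp3 was measured at 1788, 3196, 3263 and 1309.8 CPM in arterial cells (log2 fold change 1.61, SE 0.18, adjusted p = 1.65e-04), below the members of the same mouse in 4 of 4 mice. Insr, the insulin receptor, was higher (log2 fold change 1.14, SE 0.15, adjusted p = 6.69e-04), and Igfbp7, a secreted relative of Igfbp3, was lower at 247, 217, 662 and 552 CPM against 1123, 937, 1962 and 3103 CPM (log2 fold change -2.06, SE 0.18, adjusted p = 3.31e-05). Of 8 genes of this list 4 were higher and 1 was lower, with 3, 3, 3 and 4 higher without mouse 1, 2, 3 and 4. In the basement membrane list 5 of 14 were higher, among them the laminin chain Lama4 (log2 fold change 1.74, SE 0.23, adjusted p = 5.84e-04) and nidogen Nid1 (log2 fold change 1.30, SE 0.19, adjusted p = 0.00127), and fibronectin Fn1 was lower (log2 fold change -3.60, SE 0.30, adjusted p = 2.72e-05). That count was 5, 3, 4 and 3 without mouse 1, 2, 3 and 4.

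Caveolae are the flask-shaped pits of endothelial membranes, and Plvap also forms the diaphragms that close them. Of 9 genes of caveolae and fenestrae tested against arterial cells none was higher and 3 were lower. Cavin1, a coat protein of caveolae, was measured at 89.0, 84.2, 44.3 and 32.1 CPM against 149.9, 144, 79.2 and 80.1 CPM (log2 fold change -0.86, SE 0.13, adjusted p = 0.00145). Cav1, caveolin 1, was measured at 133, 119.9, 16.9 and 45.3 CPM against 211, 151, 74.8 and 90.3 CPM (log2 fold change -0.99, SE 0.23, adjusted p = 0.0166), and Ehd2, which sits at the neck of caveolae, was the other (log2 fold change -0.71, SE 0.15, adjusted p = 0.01). Each was lower in 4 of 4 mice, while the ranges overlapped across mice. Cav1 was not called without mouse 4 (adjusted p = 0.068) nor Ehd2 without mouse 1 (adjusted p = 0.0763).

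Immediate early genes, which respond within minutes to many stimuli, dissociation included, were lower than in arterial cells in 13 of 14 and higher in none, with a median log2 fold change of -0.94. Nr4a1, an orphan nuclear receptor, was measured at 43.7, 21.9, 82.7 and 36.8 CPM against 134, 77.6, 283 and 114 CPM (log2 fold change -1.68, SE 0.12, adjusted p = 1.24e-05), and Ier2 at 145, 117, 227 and 416 CPM against 518, 266, 441 and 1576 CPM (log2 fold change -1.44, SE 0.19, adjusted p = 5.02e-04). Arterial cells exceeded the members of the same mouse in 4 of 4 mice for both. The shear-responsive factors Klf2 (log2 fold change -0.71, SE 0.13, adjusted p = 0.00472) and Klf4 (log2 fold change -1.23, SE 0.12, adjusted p = 7.27e-05) moved in the same direction. The count was 12 after thinning, and 5, 8, 13 and 6 without mouse 1, 2, 3 and 4. Among thinned cells, 43.1, 35.6, 48.5 and 54.0% of members and 66.9, 52.1, 76.8 and 74.7% of arterial cells had 4 or more of the genes, lower in the members of 4 of 4 mice (adjusted p = 0.232 in the exact permutation). Effects of dissociation and of the interval to capture were not tested.

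MHC class II genes were higher than in arterial cells in 4 of 7 and lower in none, with a median log2 fold change of 0.94, among them H2-Eb1 (log2 fold change 1.43, SE 0.23, adjusted p = 0.00211). The macrophage genes C1qa, C1qb and C1qc were higher in the same comparison, with summed markers of 64.8, 78.5, 26.5 and 345 CPM in members and 22.9, 20.1, 10.4 and 187 CPM in arterial cells. The MHC class II count was 4, 4, 3 and 2 without mouse 1, 2, 3 and 4. Without the cells of highest doublet score the MHC class II count was 1 and the macrophage count 1, and with cells that had markers of other types left out the MHC class II count was 2. Of the 12 type I interferon genes 2 were higher, Ifi44 (log2 fold change 1.01, SE 0.17, adjusted p = 0.0027) and Oasl2 (log2 fold change 0.40, SE 0.12, adjusted p = 0.0489), and Oasl2 was not called when mouse 1, 2, 3 or 4 was left out (adjusted p = 0.136, 0.151, 0.163 and 0.0864). None of 10 genes of the interferon gamma list, 10 of MHC class I or 11 of glycolysis was called against arterial cells.

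The members differed widely between the 4 mice in a set of inflammatory genes. Of list genes at a mean of 50 CPM or more in the members, the 12 with the widest range between mice were Cxcl9, Csf3, Ccl21a, Cxcl10, Aqp2, Cxcl1, Selp, Gbp4, Ccl2, Gbp3, Npr3 and Retnlg. Mouse 3 held the highest value for 8 of these. Cxcl10, a chemokine for activated T cells, was measured at 5.46, 3.37, 1401 and 13.2 CPM in mice 1 to 4, and Cxcl9, its relative that interferon gamma induces, at 0, 0.673, 679 and 0.314 CPM. The neutrophil chemokine Cxcl1 was measured at 1.56, 3.37, 328 and 4.09 CPM, the granulocyte growth factor Csf3 at 0, 0, 285 and 0 CPM and P-selectin, Selp, at 3.90, 7.07, 216 and 2.20 CPM. The guanylate-binding proteins Gbp4 and Gbp3 were measured at 72.6, 78.8, 916 and 11.6 CPM and 43.7, 58.9, 418 and 9.11 CPM. With 1 group of mice there is no test of a mouse against the others.

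The high values of mouse 3 were not those of peritubular cells alone. Cxcl10 was measured at 16.5, 0, 1655 and 31.2 CPM in glomerular, 0, 0.693, 2987 and 0 CPM in arterial cells and 8.60, 30.2, 728 and 84.8 CPM in T lymphocytes. Gbp4 was measured at 33.1, 20.8, 707 and 15.6 CPM in glomerular cells, 39.0, 44.3, 873 and 17 CPM in arterial cells and 65.2, 109, 272 and 24.5 CPM in T lymphocytes. Every class was highest in mouse 3 for both. Lcn2, lipocalin 2, an injury gene of tubules, was measured at 299, 356, 9647 and 1745 CPM in the members and 1528, 473, 1914 and 854 CPM in T lymphocytes. For Lcn2 the T lymphocytes of mouse 1 lay near those of mouse 3, so that they do not show the rise seen in the members. The T lymphocyte sums also carried neutrophil markers, most in mouse 1, and the part of neutrophil RNA in their Lcn2 was not tested. Csf3 in mouse 3 reached 285 CPM in members, 54.6 CPM in glomerular cells, 323 CPM in arterial cells and 13.2 CPM in T lymphocytes, so that it was high in arterial cells too. Vcam1 in mouse 3 reached 912, 346, 533 and 46.1 CPM in the same 4 classes.

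**Figure D4:**
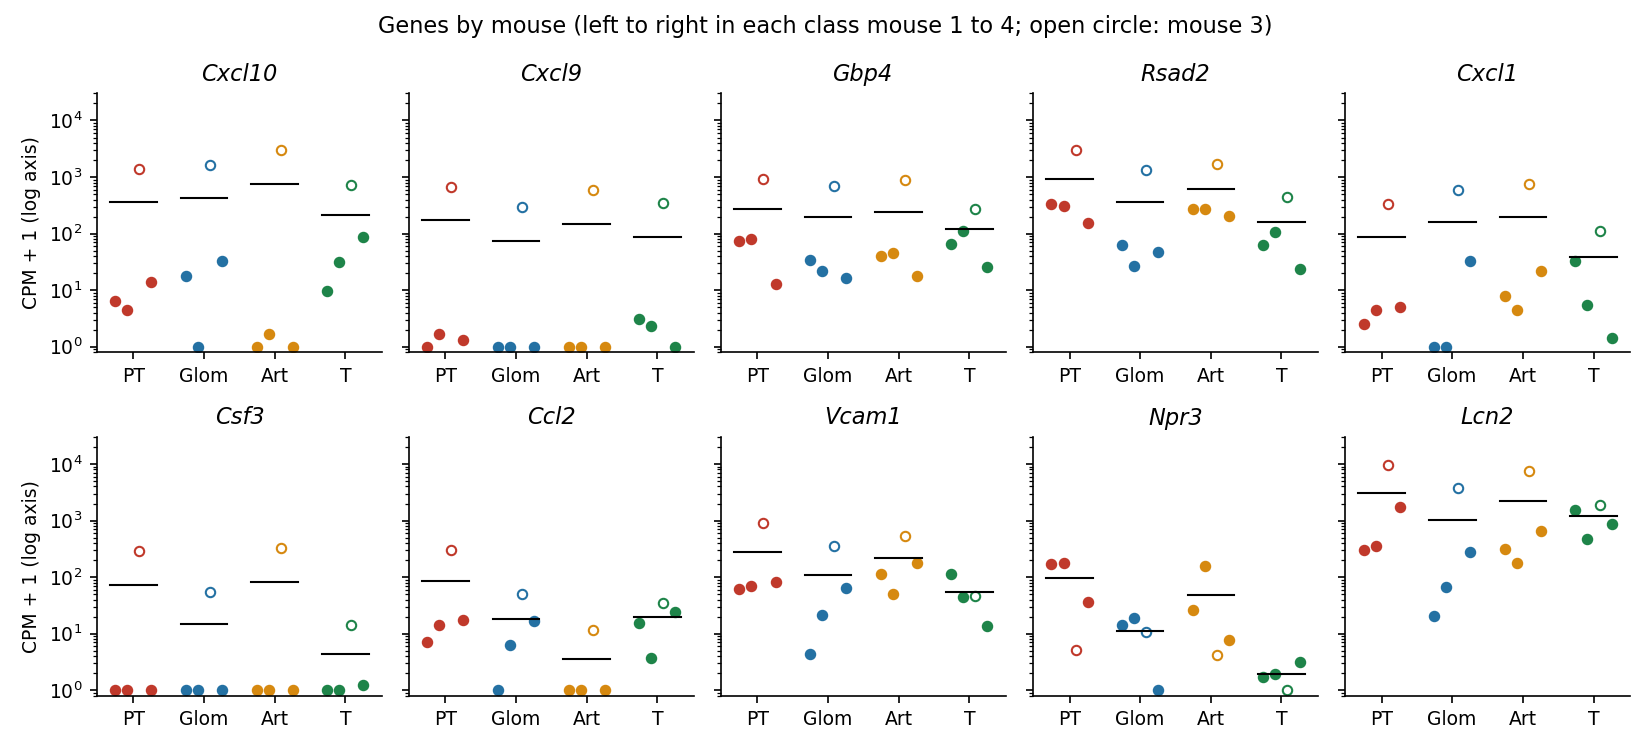
CPM plus 1 (log axis) of 10 genes in summed peritubular (PT), glomerular (Glom), arterial (Art) cells and T lymphocytes (T), 1 point per mouse from left to right, with mouse 3 as an open circle and the mean as a line. Mouse 3 is highest in the peritubular cells for 9 of the genes and lowest for Npr3.

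Per cell the same split was seen at equal depth. Among members thinned to 1000 UMIs, 25.6, 24.6, 96.3 and 28.1% had 2 or more of the 12 type I interferon genes and 15.3, 16.1, 87.8 and 4.30% had 2 or more of the 10 interferon gamma genes, against 11, 14.0, 77.7 and 7.81% and 18.0, 17.9, 66.8 and 4.44% of T lymphocytes. In mouse 3 most cells of both lineages carried these transcripts. For interferon gamma genes the members of mice 1, 2 and 4 lay below the T lymphocytes. Before thinning the shares were 61.6, 67.3, 99.4 and 51.6% and 55.7, 57.5, 98.3 and 13.4%, higher in each mouse than at equal depth. MHC class II genes were found, 2 or more, in 4.27, 1.95, 20.2 and 4.77% of thinned members and 4.03, 1.20, 5.34 and 4.32% of arterial cells. Glomerular cells gave 0, 0, 4.72 and 10%, the last from 20 cells. The members lay above them in mice 1 to 3 and below them in mouse 4 (adjusted p = 0.609 in the exact permutation of signs). Without mouse 3 the mean difference from glomerular cells was 0.33 percentage points. Double-positive cells gave 3.27, 0.765, 20.5 and 6.42% and T lymphocytes 25.7, 8.07, 19.0 and 6.75%. The share in mouse 3 was thus as high in double-positive cells as in the members, and T lymphocytes stood above the members in mice 1, 2 and 4. Cell cycle genes were found in 0.356, 0, 0.118 and 0.0782% of members and 2.04, 1.05, 1.75 and 1.25% of T lymphocytes.

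**Figure D5:**
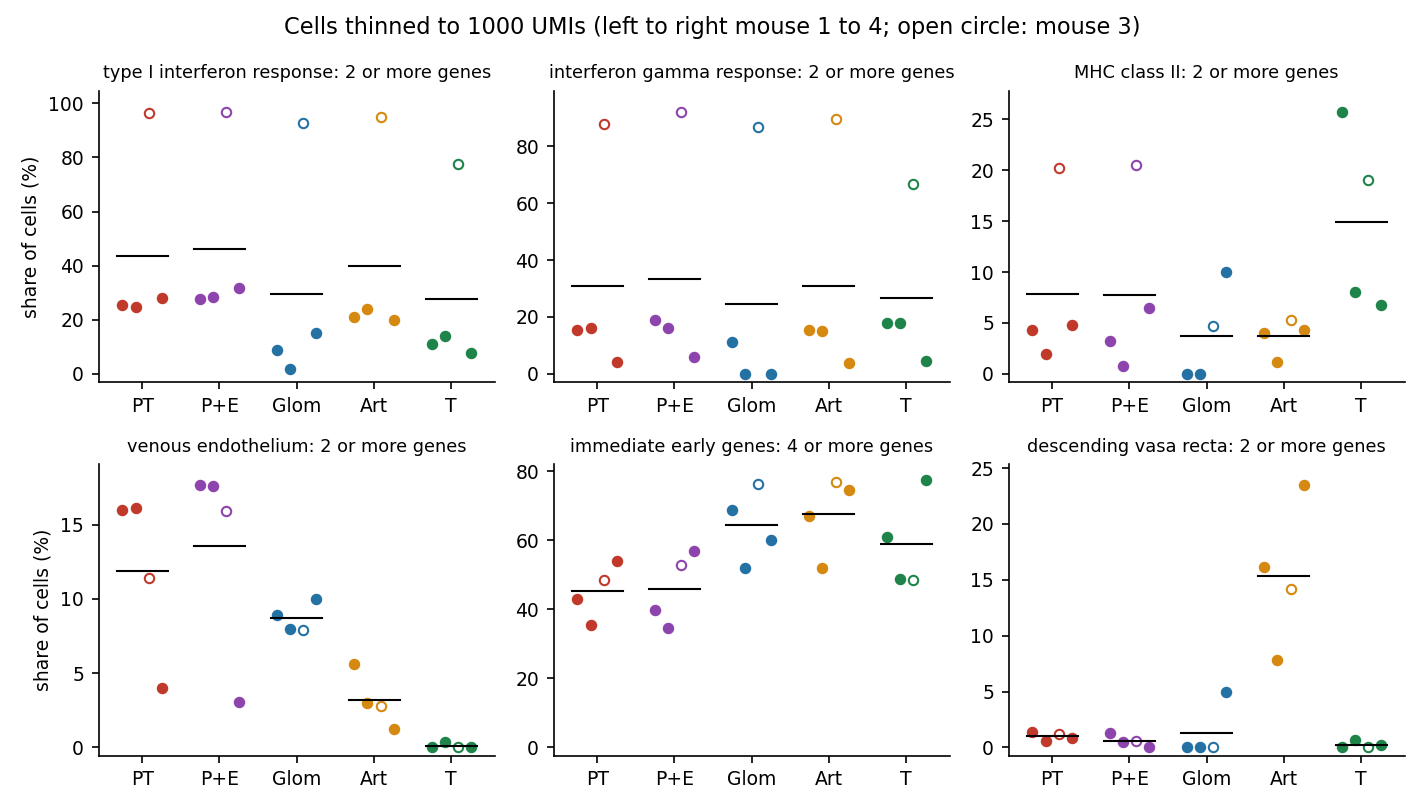
Share of cells thinned to 1000 UMIs (percent) with the stated number of genes of 6 lists in peritubular (PT), Plvap and Ehd3 double-positive (P+E), glomerular (Glom), arterial (Art) cells and T lymphocytes (T), 1 point per mouse with mouse 3 open and the mean as a line. In mouse 3 the share with interferon genes is at least 86.6% in each of the 4 endothelial classes, and venous genes are more frequent in both Plvap-positive classes than in arterial cells of the same mouse.

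Letters that interferon and NF-kB factors are known to bind were searched in the promoters of these lists. Promoter sequences, from 250 bases before to 50 after the start, came from RefSeq on GRCm38.p6 and were matched by symbol. The interferon-stimulated response element was searched as GAAA, any 2 bases and GAAA, on both strands, and it was found in 3.44% of all 32851 promoters, which are those of 27025 genes, 1079 of them with a match. In the table, 10 genes of the type I list had a promoter and 6 held it (Bst2, Ifit1, Ifit3, Isg15, Rsad2 and Stat2), and 8 of the interferon gamma list had one and 7 held it. It was in 1 of 13 genes of the chemokine list, Cxcl10, and in 0 of 4 of MHC class II. The NF-kB element was searched as GGGAA, any 1 base and TTCC, on both strands, and it was found in 0.341% of all promoters (107 genes) and in 3 of 13 genes of the chemokine list, Cxcl1, Cxcl2 and Cxcl10. It was in 1 of 8 genes of the interferon gamma list, Gbp2, in 0 of 10 of the type I list and in 0 of 4 of MHC class II. Of the 12 genes that differed most between mice 9 had a promoter, and each motif was in 2 of them. The matches on the 2 strands overlap in Cxcl1 and Cxcl2. In Gbp3 2 matches overlap, at 45 to 36 and at 39 to 30 bases upstream, and the first is the one in capitals below. Windows of genes that were high in mouse 3 follow, 5′ to 3′ on the strand of the gene, with 1 match in capitals in each. A match describes the letters only and is not a bound site.
Cxcl10 (interferon-stimulated response element, chr5:92349068-92349127, minus strand): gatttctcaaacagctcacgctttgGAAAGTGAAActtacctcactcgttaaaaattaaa
Cxcl10 (NF-kB, chr5:92349014-92349073, minus strand): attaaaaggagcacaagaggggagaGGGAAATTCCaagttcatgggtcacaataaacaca
Gbp3 (interferon-stimulated response element, chr3:142559974-142560033, plus strand): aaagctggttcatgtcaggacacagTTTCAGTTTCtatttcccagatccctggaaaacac
Rsad2 (interferon-stimulated response element, chr12:26456538-26456597, minus strand): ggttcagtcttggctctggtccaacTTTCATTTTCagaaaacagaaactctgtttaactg
Cxcl1 (NF-kB, chr5:90891149-90891208, plus strand): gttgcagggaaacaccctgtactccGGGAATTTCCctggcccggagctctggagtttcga

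Other genes marked single mice. Npr3, the natriuretic peptide clearance receptor, was lowest in mouse 3 at 166, 174, 4.10 and 34.6 CPM, and was higher than in glomerular cells in the fit (log2 fold change 2.45, SE 0.58, adjusted p = 0.0135) although mouse 3 went the other way. Without mouse 2 or 4 it was not called (adjusted p = 0.195 and 0.103). Aqp2, the water channel of collecting ducts, was measured at 4.68, 2.69, 4.73 and 625 CPM in the members and 3.22, 0.9, 0.265 and 325 CPM in T lymphocytes, so that mouse 4 was high in cells of both lineages. Retnlg, a neutrophil gene, was measured at 89.8, 118, 3.23 and 17.6 CPM in the members and 4454, 1319, 44.7 and 150.02 CPM in T lymphocytes, so that mice 1 and 2 were high in both. Ccl21a, the lymphatic chemokine, was measured at 0, 1.01, 32.8 and 200.2 CPM in the members and 0, 0, 0.265 and 0.219 CPM in T lymphocytes, and at 0, 0.162, 0 and 0 CPM in double-positive cells. Fabp4 (3524, 3942, 3105 and 10695 CPM), Hspb1, a small heat shock protein (1519, 1740.0, 1203 and 6392 CPM), and Ly6c1 (4151, 4627, 1743 and 10381 CPM) were highest in mouse 4, in arterial cells as well, where Fabp4 was measured at 4287, 3354, 3447 and 19787 CPM. The part of depth and library make-up in these differences between mice was not tested.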

How the data were processed

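Single cells of 4 mouse kidneys were counted in 4 deposited matrices, 1 per mouse, which hold whole-number UMI counts per gene and cell barcode. The deposited counts came from Cell Ranger 9.0.1, per the file headers, and the submitters' processing notes also name Seurat 4.1.1 without its role. Neither the genome build nor the alignment settings are given in the sources used here. Per the labels, the mice are independent biological replicates. Of 57132 gene identifiers 51880 had a name in the reference table, and 1 list symbol with an ambiguous match was left out.

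Classes were set per cell by the counts of named genes, with no clustering and no deposited annotation. The members and the gene lists were chosen with earlier results of these data known. Counts were summed per mouse and class (10 cells or more) and tested with edgeR 4.0.16 in R 4.3.3 (TMM scaling, filterByExpr, glmQLFit and glmQLFTest, Benjamini-Hochberg adjustment over all genes tested, threshold 0.05). Mouse was a block, since both classes come from the same animals. On simulated counts the glomerular comparison recovered 39 of 100 genes changed 2-fold and 96 of 100 changed 4-fold, with 5 false calls among 10107 genes. The arterial comparison recovered 82 of 100 and 99 of 99, with 3 false calls among 11962. The simulation gave all genes 1 common dispersion (variation beyond counting error) and a class difference that was the same in every mouse. Its changed genes were not drawn from those of lowest counts. How far these rates hold for genes that vary more between mice was not tested. Levels are CPM of the summed counts, not corrected for length. Shares of cells were compared after each cell was thinned to 1000 UMIs, which left out shallower cells (284 members), with an exact permutation of signs over mice (scipy 1.17.1). With 4 mice the smallest p of that permutation is 0.125, so no comparison of shares could pass 0.05. Intervals are exact Clopper-Pearson at 95%, the floor of a count of 0 is 3 counts, and both cover counting error only. Scrublet, run through scanpy 1.11.5, called 0, 111, 1 and 1 doublets in mice 1 to 4, which is no working call in 3 of them, so doublets were not removed and the cells of highest doublet score (0.8% per 1000 cells) were left out in an alternative.

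Genes were named by a rule: the genes that set the classes, at most 3 called genes per direction and 4 abundant genes of each list, the 10 largest changes per direction outside the lists (mean of 10 CPM or more, same direction in every mouse), the 15 most abundant genes, and the 12 list genes that differed most between mice. Some further list members were named after their values were seen. Alternatives were a mitochondrial limit of 20%, a minimum of 1000 UMIs, thinning, a Plvap and Ehd3 minimum of 2, cells of highest doublet score or with markers of other types left out, DESeq2 1.42.0, no filter on low counts, no block and each mouse left out. Removing the limit on Ehd3 was added after the data were seen. A few results are not reported here.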

Additional observations from a re-analysis of the deposited data

Results flagged for a closer look

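Of 28 genes checked in the members, 14 had 1 mouse far from the other 3 by Dixon's ratio (the gap to the nearest mouse over the whole range) at its 95% critical value for 4 samples, a measure that chance passes in about 1 in 20 groups. That rate does not apply here, since 12 of the 28 genes were chosen for the widest range between mice, and 10 of the 14 are among these. Mouse 3 was the mouse that stood apart in 9 of the 14. There, Cxcl10 reached 1401 CPM, Cxcl9 679 CPM, Gbp4 916 CPM, Gbp3 418 CPM, Cxcl1 328 CPM, Ccl2 298 CPM, Csf3 285 CPM, P-selectin (Selp) 216 CPM and Lcn2 9647 CPM.

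Mouse 4 stood apart in the other 5. Fabp4 reached 10695 CPM, Rgcc 8971 CPM, Hspb1 6392 CPM, the collecting duct gene Aqp2 625 CPM and the lymphatic gene Ccl21a 200.2 CPM. The library of mouse 4 also had the lowest depth and the highest share of ribosomal protein UMIs, and the part of these in the 5 values was not tested.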

How the results depend on the processing

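Against glomerular cells, 425 higher and 452 lower genes became 120 and 103 after thinning to 1000 UMIs, 168 and 158 when cells with markers of other types were left out, and 196 to 403 and 241 to 427 when single mice were left out. With no filter 675 were higher. Against arterial cells, 913 and 863 became 461 and 432 after thinning, and 567 to 765 and 511 to 801 without single mice. Without the replicate block, that is without the pairing by mouse, 9 genes were higher and 34 lower than in glomerular cells, and 13 higher and 61 lower than in arterial cells. The mean share of members among kept cells was 28.9% when cells with markers of other types left both numerator and denominator. With no limit on Ehd3, an alternative chosen after seeing the data, it was 13.8%, and 75.8% of gated endothelium. All other settings kept these counts within 1.5 times and these shares within 1 SD.

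With cells that carried markers of other types left out, 3 log2 fold changes turned: Bgn to 0.59 and Igfbp7 to 1.27 against glomerular cells, and Acta2 to 1.11 against arterial cells. DESeq2 gave -2.35 for Csf3 and -0.51 for Cxcl9 against glomerular cells. Cxcl2 against arterial cells ranged from -0.29 to 0.85 without single mice. The cause was not tested.

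Mouse 4 gave 21 glomerular cells, which limits the depth of its sum. The genes of a class's own gate, and the depth that Ehd3 and Plvap detection brings with it, were not corrected for. Age, sex, dose and time could not be compared, and no uninjured mouse was analysed here.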
